A study of Homo sapiens with 17 samples.

Results

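*DDIT4*, *C10orf10*, *SESN1* and *SESN3* encode stress-inducible proteins, and 3 of the 4 are known as brakes on the growth kinase complex mTORC1. DDIT4 (also called REDD1) releases the TSC complex, which switches off RHEB, the GTPase that activates mTORC1. The sestrins bind GATOR2 and so restrain amino acid signaling to mTORC1, and they also act in the defense against oxidants. C10orf10, now named DEPP1, is a small protein whose gene is a known target of FOXO transcription factors and which has been tied to autophagy and peroxisomes. The 4 genes were taken by symbol from the 19222 genes listed in the 1 h experiment, and they were chosen because their levels or labeling after emetine had been seen in these data. Their values in the comparison of emetine with untreated cells are therefore a description with no test.

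The cells were HEK-293T, a human embryonic kidney line of wild-type genotype that served as the only model, and emetine, which blocks the movement of ribosomes along mRNA, was given at 1.8 µM. In the 1 h experiment, 3 untreated and 3 emetine libraries came from cells that also received 500 µM 4-thiouridine (s4U) for 1 h, and 1 untreated and 1 emetine library came from cells with no s4U. In the 2 h experiment all cells were given 250 µM s4U, and 3 libraries each came from untreated cells, from cells at the same emetine dose and from cells at 240 µM. s4U is built into new RNA and is read as T-to-C conversions after TimeLapse chemistry, and in the 1 h experiment emetine and s4U were present over the same hour, so labeled RNA was made in the presence of the drug. Nothing in the labels says whether replicates were separate cultures.

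Each library of the 1 h experiment held from 22246279 to 40018063 reads of genes, and the error of every value below includes counting noise. Levels are in CPM, reads scaled to library size, by the TMM method over the 8 libraries of the 1 h experiment. All 7 markers listed for the line were present in each of these libraries, from *PAX2* (1.23 to 2.93 CPM) and *KRT8* (3.76 to 7.06 CPM) at the low end to *VIM* (460 to 657 CPM). Of 7 markers of other cell types, *PTPRC* and *HBB* had 0 reads, *COL1A2* 1, *CDH5* 6 and *ALB* 21 reads in all 8 together, while *CD68*, a macrophage marker, lay between 1.17 and 2.63 CPM, as low as *PAX2*, and *COL1A1* between 19.4 and 28.1 CPM. 1 library stood apart, emetine replicate 3 with s4U. Its deviations from the group means had an SD of 0.301 on the log2 scale, against 0.157 to 0.197 in the other 5 libraries with s4U, and had a rank correlation of 0.70 with transcript length across genes. The level changes of the 4 genes and the counts of pathway genes called are given with and without it.

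The 4 transcripts differ in build. *DDIT4* (chr10:72273919-72276036, plus strand of GRCh38, GENCODE 44) has 3 exons, a transcript of 1744 bases and a 3′ UTR of 848 bases. *C10orf10* (chr10:44970981-44978809, minus strand) has 2 exons, 2120 bases and a 3′ UTR of 1264 bases. *SESN1* (chr6:108984309-109094846, minus strand) and *SESN3* (chr11:95165513-95232541, minus strand) each have 10 exons, with transcripts of 5664 and 9563 bases and 3′ UTRs of 3235 and 7742 bases. The third codon position was G or C in 83.7% of *DDIT4* codons and 69.5% of *C10orf10* codons but in 37.3% of *SESN1* and 40.2% of *SESN3* codons, where the median of 10411 coding genes was 58.3%.

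The AU-rich pentamer ATTTA, a letter pattern found in many unstable mRNAs, was counted on the transcript strand of the 3′ UTRs. *DDIT4* held 0, *C10orf10* 1, *SESN1* 9 and *SESN3* 29 copies, or 0.79, 2.78 and 3.75 per kilobase in the last 3, against a median of 1.74 per kilobase over the 10411 genes. At least 1 copy was present in 74.7% of those genes. The longer TTATTTATT, each copy of which contains an ATTTA, was found in none of the 4 UTRs and in 9.56% of genes. The 3′ UTR sites with the most pentamers in a short stretch are given here, read 5′ to 3′ on the transcript strand from GRCh38, to let the single site of the shortest-lived carrier be compared with the clusters in the sestrins. Capitals mark ATTTA.
C10orf10 (chr10:44976142-44976170, minus strand): ctgcATTTAtgagcactgtagacaaatgt
SESN1 (chr6:108984670-108984698, minus strand): aaaaATTTAacaattccATTTAcaatagg
SESN3 (chr11:95170566-95170594, minus strand): ttgaATTTActATTTAgtaATTTAtagta

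Promoters were searched on both strands, from 250 bases before to 50 after each start in the RefSeq table for GRCh38.p14, for the FOXO motif GTAAACA, the core ACGTG that hypoxia-inducible factors bind, the amino acid response motif TGATGNAA and the TATA box TATAAA, none of which overlapped another in these windows. The *C10orf10* promoter held GTAAACA (in 3.42% of 35116 promoters) 180 bases before the start and TATAAA (in 11.5%) 31 bases before it. The *DDIT4* promoter held ACGTG (in 21.4%) 125 bases before the start. None of the 4 patterns was found in the 3 *SESN1* windows or the *SESN3* window, and TGATGNAA (in 3.62%) was found in no member. The matches are shown with their flanks, in capitals, since *DDIT4* and *C10orf10* had alike profiles below, and they are letter matches, not measured binding.
C10orf10, FOXO motif (chr10:44978973-44978999, minus strand): gccctgcagcGTAAACAttccccagcc
C10orf10, TATA box (chr10:44978825-44978850, minus strand): gctgggaaggTATAAAagcagcttgc
DDIT4, ACGTG core (chr10:72273789-72273813, plus strand): aacgttgcttACGTGcgcccggagt

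In untreated cells the 4 genes fell into a fast and a slow pair. The fraction new, the estimated share of a gene's reads that were made during the hour with s4U, was 83.6%, 91.3% and 89.8% in the 3 untreated libraries for *DDIT4*. For *C10orf10* it was 83.8%, 90.5% and 92.1%. Almost all RNA of both genes was thus made within the hour, and both stood at percentile 99.7 of 10763 genes (those with 100 or more reads per library with s4U), whose median was 12.2%. Under a steady state these values correspond to half-lives of 19.4 ± 3.14 min for *DDIT4* and 18.9 ± 3.42 min for *C10orf10* (SD, n = 3). These differed by less than their spread. The steady state was not tested, and both genes were lower with s4U than in the 1 untreated library without it.

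The sestrins turned over more slowly. *SESN1* had a fraction new of 16.0%, 27.5% and 27.6% and *SESN3* of 13.5%, 21.0% and 27.6%, at percentiles 78.0 and 73.2. Their half-lives ranged from 129 to 239 min and from 129 to 286 min, ranges that overlap. For both, untreated replicate 1 was lowest, and the median fraction new of all genes was also lowest in that library (9.30%, against 12.4% and 14.7% in the other two). The third sestrin, *SESN2*, a leucine sensor and no member of the set, lay between the pairs at 39.1% ± 8.80 (SD, n = 3).

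Levels per transcript length gave another order. In untreated cells with s4U, *DDIT4* had 15.6 ± 1.49 CPM per kilobase, *SESN1* 4.71 ± 0.263, *SESN3* 3.94 ± 0.0944 and *C10orf10* 2.45 ± 0.300 (SD, n = 3), and no neighbors in this order overlapped. *SESN2*, at 16.7 CPM per kilobase, differed from *DDIT4* by less than the spread of the latter. *C10orf10* was the scarcest of the set, with 137, 207 and 101 reads in the untreated libraries.

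*DDIT4* was about 1.7 times as abundant after 1 h with emetine. Its level was 24.3, 28.1 and 29.3 CPM in untreated cells and 45.4, 48.7 and 45.1 CPM in emetine-treated cells, all with s4U. Every emetine library lay above every untreated one, as it did for 19.6% of the 13776 genes tested (every one lay below in 15.2%), and the log2 change was 0.77 (SE 0.10). In bulk libraries, more RNA per cell and more cells holding the RNA cannot be told apart. Over the same genes the median change was 0.030, and 2.64% (363 genes) passed an adjusted p of 0.05 as higher and 0.0436% (6 genes) as lower (edgeR). With each library corrected for a dependence on length and GC content these counts were 762 and 706.

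*C10orf10* had the largest difference in level of the 4. It stood at 4.91, 5.93 and 4.76 CPM without emetine and 16.4, 17.5 and 15.4 CPM with it, 3.14 times as high by the fit (log2 change 1.65, SE 0.14). This change stood at percentile 99.85 of the genes tested.

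The sestrins differed far less. *SESN1* was at 26.7, 28.2 and 25.2 CPM in untreated cells and at 33.3, 31.9 and 33.9 CPM with emetine. The log2 change was 0.31 (SE 0.094), at percentile 80.3 of the genes tested. Every emetine library lay above every untreated one, as in 19.6% of the 13776 genes tested (below in 15.2%). *SESN3* was at 36.6, 38.2 and 38.2 CPM without and at 35.5, 36.1 and 49.97 CPM with emetine, so the groups overlapped. Its highest value came from emetine replicate 3, the library that stood apart and whose deviations went with transcript length, and the *SESN3* transcript is longer than 94.9% of those of the 10411 genes. The log2 change of *SESN3* was 0.10 (SE 0.14) with that library and -0.07 without it, while *SESN1* (0.29), *DDIT4* (0.80) and *C10orf10* (1.69) kept a higher level without it.

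The scaling moves all of these values together. TMM sets the change of most genes near 0, and scaling to the spike-in reads instead put the median change of all genes at 0.71. Relative to that median, the log2 changes were 0.72 for *DDIT4*, 1.58 for *C10orf10*, 0.27 for *SESN1* and 0.08 for *SESN3*. The log2 changes of the 4 genes under spike-in scaling had an SE of 0.47 to 0.51, against 0.094 to 0.14 with TMM. Between the 2 libraries without s4U, spike-in scaling moved values the other way, with a *DDIT4* ratio of 1.46 against 1.63 with TMM. With each library corrected for a dependence on transcript length and GC content, the log2 change of *SESN1* was 0.10 and that of *SESN3* was -0.18, against 0.87 and 1.70 for *DDIT4* and *C10orf10*.

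**Figure D1:**
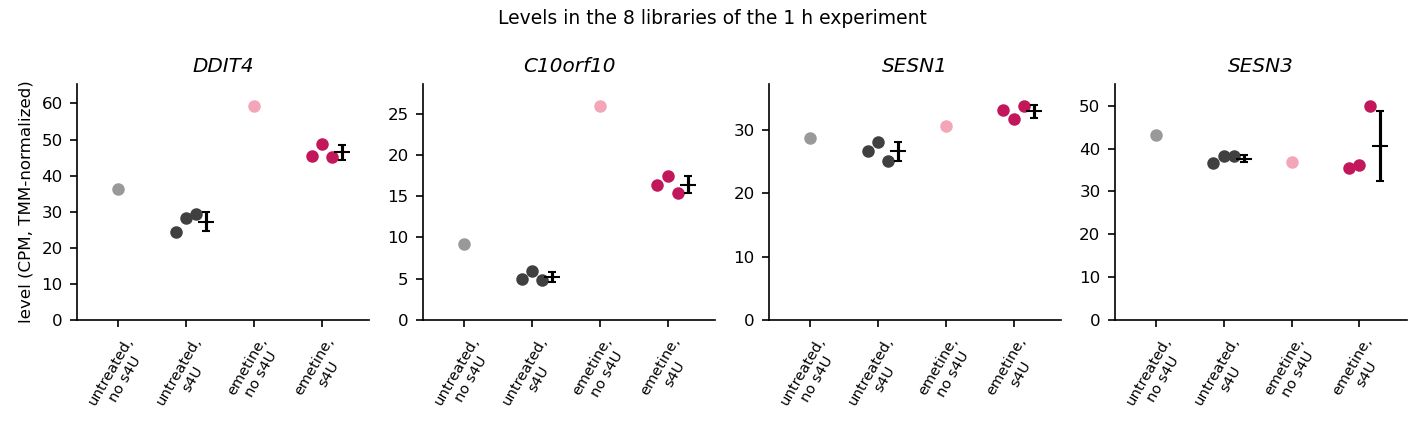
Level of each gene (vertical axis, CPM after TMM scaling, starting at 0) in each of the 8 libraries of the 1 h experiment (points), by treatment (horizontal axis); black bars are mean ± SD of 3 libraries. For *DDIT4* and *C10orf10* the 3 emetine libraries with s4U lie above the 3 untreated ones, and each library without s4U lies above those of its own treatment; for *SESN3* 1 emetine library at 49.97 CPM stands above the other two.

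The share of new reads differed in the opposite direction from the level for the fast pair. With emetine the fraction new of *DDIT4* was 57.6%, 57.1% and 56.4%, against 83.6% or more without it. That of *C10orf10* was 52.5%, 53.0% and 51.3%. In both genes every emetine library lay below every untreated one, as in 16.8% of all genes (above in 2.17%), and the change in the logit of fraction new was -1.77 (SE 0.27) for *DDIT4* and -2.03 (SE 0.27) for *C10orf10*, where the median of all genes was -0.16. Across genes, 4.81% passed an adjusted p of 0.05 as lower and 0.204% as higher (limma).

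The sestrins had no such difference. *SESN1* stood at 23.7%, 23.5% and 22.2% with emetine and *SESN3* at 20.6%, 22.8% and 23.2%, both inside the range of the untreated libraries. The logit changes were -0.0022 (SE 0.21) and 0.13 (SE 0.21). Without untreated replicate 1 they were -0.23 and -0.11.

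**Figure D2:**
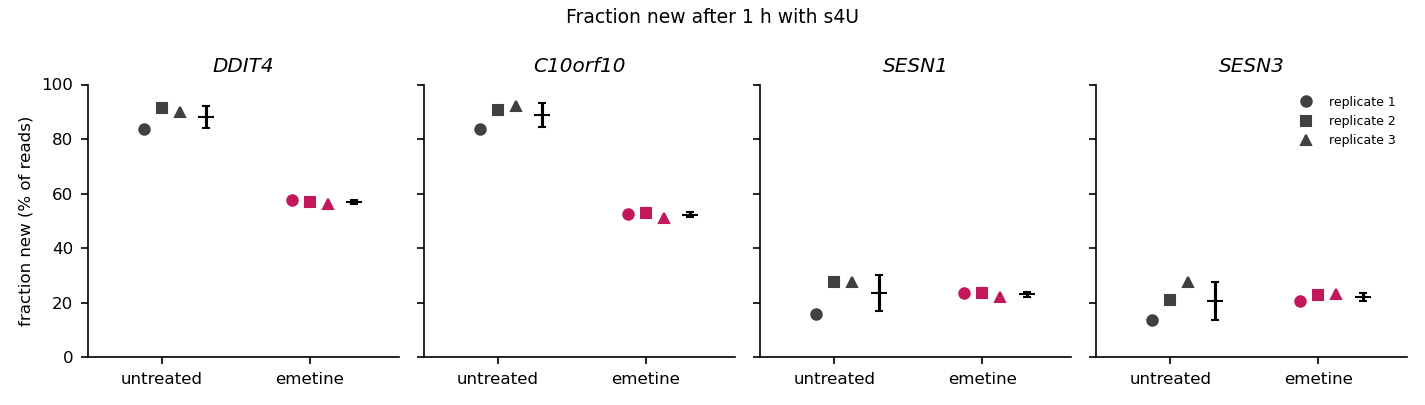
Fraction new (vertical axis, percent of a gene's reads) in the 3 untreated and 3 emetine libraries with s4U (points, with a symbol for each replicate number); black bars are mean ± SD. *DDIT4* and *C10orf10* lie between 83.6% and 92.1% in untreated cells and between 51.3% and 57.6% with emetine, while the emetine points of *SESN1* and *SESN3* lie within the untreated range.

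The conversions in single reads show the same without any model. Reads with 2 or more conversions made up 69.9%, 76.1% and 67.5% of *DDIT4* reads in untreated cells and 43.1%, 45.0% and 39.2% with emetine. In the libraries without s4U they made up 0 of 857 reads and 0.106% of 1886. For *C10orf10* the shares were 66.4%, 67.1% and 62.4% without and 34.7%, 40.9% and 36.0% with emetine. For *SESN1* they ran from 13.96% to 25.5% in untreated and from 19.1% to 21.8% in emetine-treated cells, and for *SESN3* from 12.6% to 24.7% and from 18.2% to 20.8%. The groups were apart for *DDIT4* and *C10orf10* and overlapped for the sestrins.

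**Figure D3:**
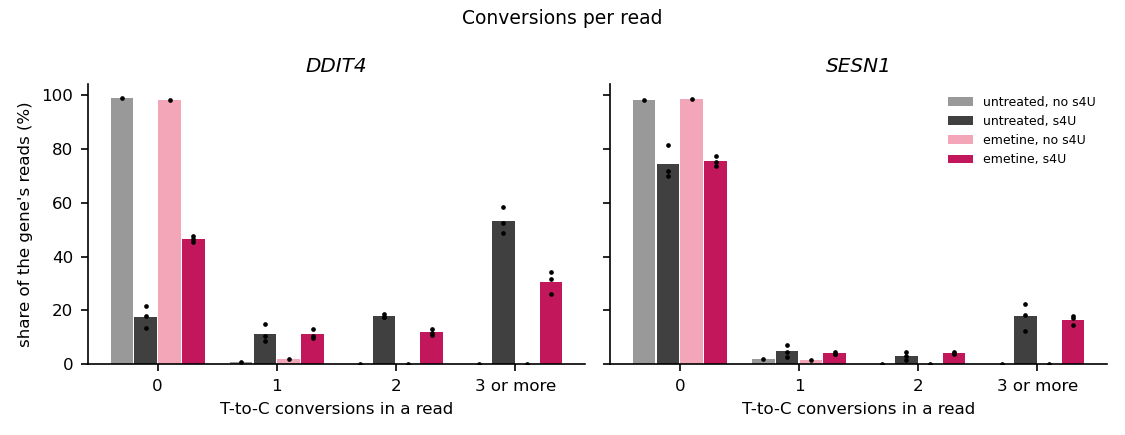
Share of reads (vertical axis, percent) with 0, 1, 2 or at least 3 T-to-C conversions (horizontal axis) for *DDIT4* and *SESN1*; bars are means of the libraries of a group and dots single libraries. Nearly all reads have no conversion without s4U, *DDIT4* reads with 3 or more conversions are fewer with emetine than without it, and the *SESN1* bars of both treatments with s4U lie close together.

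Each level was split by the fraction new into labeled and unlabeled reads. Labeled *DDIT4* was 24.1 ± 3.28 CPM in untreated and 26.5 ± 1.23 CPM in emetine-treated cells (SD, n = 3), a ratio of 1.098 that lay within the spread of the untreated libraries. Unlabeled *DDIT4* was 3.15 ± 0.775 CPM without and 19.95 ± 0.873 CPM with emetine, 6.34 times as much. On the TMM scale, nearly the whole difference in *DDIT4* level therefore lay in unlabeled reads. The split was not made under spike-in scaling, where the log2 change in *DDIT4* level was 1.43 (SE 0.48).

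*C10orf10* differed in both parts. Its labeled level was 4.63 ± 0.658 and 8.58 ± 0.665 CPM, a ratio of 1.86, and its unlabeled level 0.577 ± 0.210 and 7.83 ± 0.346 CPM, 13.6 times as much. In *SESN1* both parts differed alike, by ratios of 1.21 for labeled and 1.25 for unlabeled reads, and in *SESN3* by 1.16 and 1.06. For all genes the median log2 ratios were -0.18 for labeled and 0.048 for unlabeled reads.

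**Figure D4:**
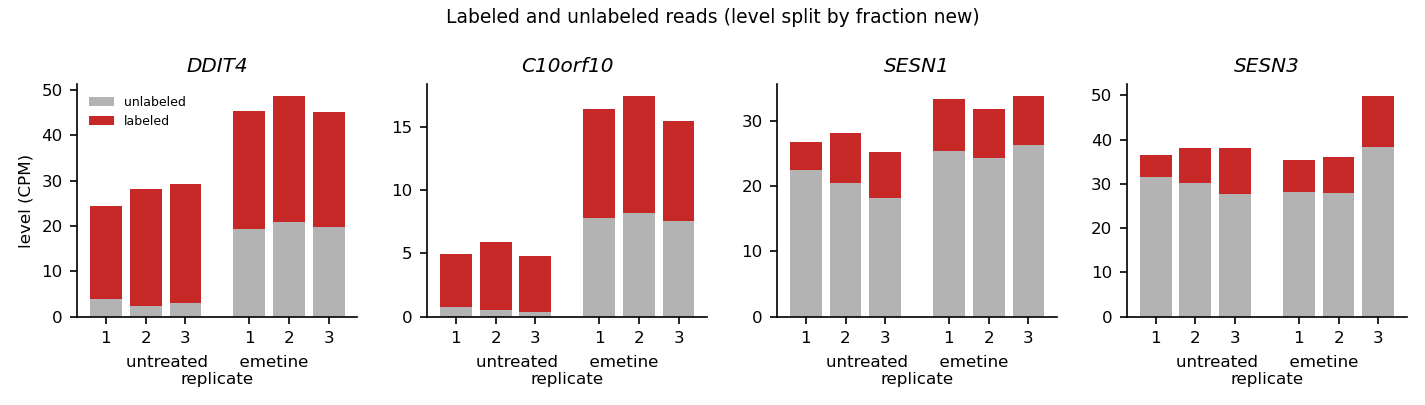
Level of each gene (bar height, CPM, starting at 0) in the 3 untreated and 3 emetine libraries with s4U, divided into unlabeled reads (gray) and labeled reads (red). The gray part of *DDIT4* lies between 2.46 and 3.99 CPM in untreated cells and between 19.2 and 20.9 CPM with emetine while its red part has a like height, and in *C10orf10* both parts are taller with emetine.

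The unlabeled reads after the hour can be set against the level in untreated cells, both on the TMM scale. With emetine, unlabeled *DDIT4* equaled 73.2% ± 3.20 of the untreated level and unlabeled *C10orf10* 151% ± 6.66, while in untreated cells it was 11.6% and 11.1%. A value above 100% means that, on the scale of the libraries with s4U, unlabeled *C10orf10* reads cannot be equated with RNA present before the hour, and how far this holds for the other genes was not tested. *SESN1* (95.1% ± 3.72) and *SESN3* (83.6% ± 15.9) lay on either side of the median of all genes, 87.7%. Against the untreated library without s4U, in which *DDIT4* and *C10orf10* were higher, the unlabeled levels with emetine were 54.9% for *DDIT4*, 85.1% for *C10orf10*, 88.0% for *SESN1* and 73.0% for *SESN3*.

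Most other genes with a fraction new this high in untreated cells had a lower unlabeled level with emetine than *DDIT4* and *C10orf10*, relative to their untreated level. Among the genes tested, 30 others had an untreated fraction new at or above the 88.2% of *DDIT4*. Their unlabeled level with emetine had a median of 13.2% of the untreated level and ranged from 3.14% to 109%, and it was below 20% in 21 of the 30. Of the 32 genes, *C10orf10* ranked 1 and *DDIT4* ranked 5. The 3 genes between them were zinc finger genes, *ZNF57* (109%), *ZNF416* (84.8%) and *ZNF296* (78.2%). *ZNF367*, the remaining gene of the 30 with a ZNF symbol, stood at 12.5%. These ZNF genes were named after their values were seen. The median logit change of fraction new over the 30 was -0.61, and that of level was 0.29. These 30 genes were chosen by their untreated values, which enter the change too, and serve as a description.

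**Figure D5:**
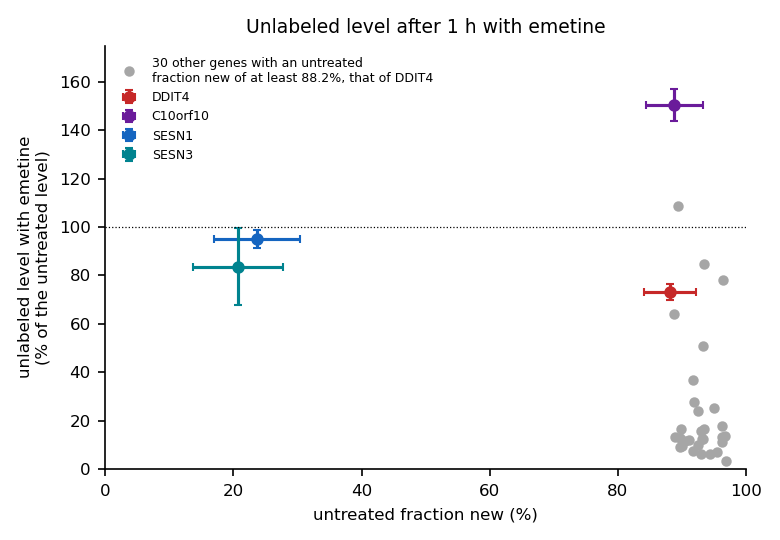
Unlabeled level with emetine as a percentage of the untreated level (vertical axis) against untreated fraction new (horizontal axis, percent), for the 4 genes (mean ± SD, n = 3) and for 30 other genes with an untreated fraction new of at least 88.2% (gray). The dotted line is 100%; *C10orf10* at 151% and *DDIT4* at 73.2% lie above most gray points, of which 21 are below 20%.

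The genes whose profile over the 8 levels and 6 fractions new was most like that of *DDIT4*, by Euclidean distance over 14 values among 10762 others, were *MED26* (distance 0.551), *CCNL1* (0.692) and *ZNF574* (0.750), against a median distance of 8.28, and *C10orf10* ranked 11. Nearest to *C10orf10* were *ZNF16* (1.25), *ZNF57* (1.30) and *DDIT4* (1.31). *USP1* and *UBE2Z* were nearest to *SESN1*, and *EFCAB14*, *PCDH7* and *WASL* to *SESN3*, at distances from 0.303 to 0.418. *SESN3* ranked 229 for *SESN1*, and *SESN1* ranked 133 for *SESN3*.

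Reads across splice junctions, which come from spliced RNA, gave a like picture where they were many enough. In *DDIT4*, junction reads (73 to 269 per library) had a fraction new of 86.7%, 74.9% and 85.8% in untreated and 63.1%, 56.8% and 50.9% in emetine-treated cells. Reads within 1 exon had 83.0%, 94.0% and 90.5% against 56.9%, 57.1% and 57.7%. *C10orf10* had only 5 to 42 junction reads per library with s4U. In *SESN1*, 40.6% of reads crossed a junction in emetine replicate 3, against 24.5% to 30.3% in the other libraries with s4U.

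The 2 libraries without s4U compare emetine with untreated cells with 1 library each, which allows no test across replicates. The emetine library held 1.63 times the *DDIT4* level of the untreated one (95% exact interval 1.505 to 1.77, counting error only) and 2.83 times that of *C10orf10* (2.43 to 3.30). *SESN1* had a ratio of 1.06 (0.964 to 1.18) and *SESN3* of 0.853 (0.783 to 0.928). Past 1.5-fold lay 6.77% of 14102 genes as higher, among them *DDIT4* and *C10orf10*, and 3.9% as lower. Under spike-in scaling the *DDIT4* ratio was 1.46, below that threshold, while that of *C10orf10* was 2.53.

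A comparison that did not choose the genes was that of the 6 libraries with s4U against the 2 without it. *C10orf10* was at 9.21 CPM in the untreated library without s4U, above 4.91, 5.93 and 4.76 CPM with it, and at 26.0 CPM in the emetine library without s4U, above 16.4, 17.5 and 15.4 CPM. *DDIT4* was likewise at 36.4 and 59.3 CPM without s4U, above all 3 libraries with s4U of each treatment. This order, with all 6 libraries with s4U below the one without it of the same treatment, held in 10.1% of 14102 genes. The log2 differences, with treatment as a term, were -0.73 (SE 0.12) for *C10orf10* and -0.39 (SE 0.095) for *DDIT4*.

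Neither passed the threshold over all genes. The edgeR adjusted p was 0.271 for *C10orf10* (unadjusted p = 0.000134) and 0.755 for *DDIT4* (unadjusted p = 0.00225). Across all genes, 0% were called in either direction by edgeR, 178 genes (1.26%) as higher and 495 (3.51%) as lower had an unadjusted p under 0.05, and DESeq2 called 7 higher and 18 lower. *C10orf10* passed with DESeq2 (log2 difference -0.72, adjusted p = 0.000565) and with edgeR without emetine replicate 3 (-0.70, adjusted p = 0.0212). Over all alternatives its adjusted p ranged from 0.000565 to 1.00 and that of *DDIT4* from 0.0722 to 1.00. *SESN1* (-0.0034, SE 0.097, adjusted p = 0.996) and *SESN3* (-0.032, SE 0.14, adjusted p = 0.973) differed by less than their errors.

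The order of levels over the 4 conditions was the same for *DDIT4* and *C10orf10*, with no overlap. Levels were highest with emetine and no s4U, then emetine with s4U, untreated with no s4U and untreated with s4U. The share of all genes with this order is not given here, and each condition without s4U is 1 library. The emetine part of the order is the comparison that chose the genes. For *SESN1* the order was emetine with s4U (33.0 ± 1.03 CPM), emetine without (30.7), untreated without (28.8) and untreated with s4U (26.7 ± 1.49). For *SESN3* the libraries without s4U (43.1 untreated, 36.7 emetine) and all untreated libraries lay within the range of the 3 emetine libraries with s4U, 35.5 to 49.97 CPM.

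The relatives of the set, which it did not include, were tested in the emetine comparison. *SESN2* was at 57.6 ± 2.26 CPM in untreated and 64.7 ± 2.40 CPM in emetine-treated cells (log2 change 0.16, SE 0.083, edgeR adjusted p = 0.268), and its fraction new was 39.1% ± 8.80 and 27.6% ± 0.851 (logit change -0.51, SE 0.22, limma adjusted p = 0.194). *DDIT4L*, the paralog of *DDIT4*, was at 3.11 ± 0.426 and 2.69 ± 0.499 CPM (log2 change -0.20, SE 0.21, edgeR adjusted p = 0.578) and had too few reads for the test of fraction new. Neither passed the test.

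The pathway around the 4 genes was described by 108 genes in 12 lists. Of the 106 tested for level, 0 were called higher and 0 lower by edgeR, 18 and 11 had an unadjusted p under 0.05 (14.9% and 6.95% of all genes did), and DESeq2 called 3 higher and 2 lower. Their median log2 change was 0.037, next to 0.030 for all genes. Without emetine replicate 3 the counts were 8 and 5, near the background of that fit, in which 10.1% of all genes were called higher and 3.87% lower. Among the genes of mTORC2, *RICTOR* and *PRR5L* were then called higher and *MAPKAP1* lower (log2 change -0.21, edgeR adjusted p = 0.0235). *PRR5L* had the lowest untreated level of the 106 genes tested, and the other listed members of mTORC2 were not called. The other genes called higher then were *DEPDC5* and *ITFG2* of GATOR1 and KICSTOR, the AMPK subunits *PRKAB1* and *PRKAB2*, and the transcription factors *NFE2L2* and *FOXO1*. The other genes called lower were *LAMTOR1* of Ragulator, the amino acid sensor *GATSL2*, the translation repressor *EIF4EBP1* and the peroxiredoxin *PRDX5*. These 13 genes were named after their values were seen.

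By role, no list had a member past the threshold for level. The 5 genes of the TSC complex and RHEB had a median log2 change of -0.12 and the 5 of GATOR2, which sestrins bind, 0.090. The 7 of GATOR1 and KICSTOR, which inhibit the Rag GTPases, had a median of 0.26. The 11 of the mTOR complexes had 0.11, the 13 of the Rag GTPases, Ragulator and folliculin -0.016, the 10 tested of AMPK and its kinases 0.18, and the 14 effectors of mTORC1 -0.062. The 4 amino acid sensors had -0.087 and the 12 of the PI3K and AKT arm 0.12. The 11 redox partners of sestrins, peroxiredoxins among them, had -0.28, and the 12 tested transcription factors known to drive the 4 genes 0.11. These medians include emetine replicate 3 and are not given without it. The listed peroxiredoxins changed by -0.40 to -0.14 with that library and by -0.23 to -0.11 without it.

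In fraction new, 2 of 98 pathway genes tested were lower with emetine and 0 higher, against 4.81% and 0.204% of all genes. *NFE2L2*, the transcription factor that turns on antioxidant genes, had 24.0%, 32.1% and 38.0% in untreated and 16.8%, 18.4% and 18.8% in emetine-treated cells (logit change -0.72, SE 0.21, limma adjusted p = 0.0286). *CEBPB*, a stress-responsive transcription factor, had 50.6%, 59.5% and 66.8% against 40.8%, 40.8% and 41.0% (logit change -0.74, SE 0.24, limma adjusted p = 0.0498). The count of 2 rested on single libraries, since it was 20 without untreated replicate 1 and 0 without any 1 of the other 5. The median logit change of the 98 genes was -0.17, next to -0.16 for all genes.

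In the 2 h experiment, only the authors' mean of normalized counts over all libraries was used, and it gives no comparison between doses. It was 512 for *DDIT4*, 925 for *SESN1* and 3231 for *SESN3*, at percentiles 33.4, 52.8 and 87.7 of 9982 genes. These values are not corrected for length, so they do not order the genes by abundance. *C10orf10* was not analysed here at 2 h.

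*C10orf10* lies within *RASSF4* on the opposite strand, with 0 shared exon bases. *SESN1* shares 243 exon bases with a lncRNA on the opposite strand, and *SESN3* overlaps *LNCRNA-IUR* on the opposite strand with 0 shared exon bases. The library kit marks strand, and the strand setting of the counting is not given in the sources used here.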

How the data were processed

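The 8 libraries of the 1 h experiment were analysed from a table of whole read counts deposited by the authors, who trimmed adapters with cutadapt, mapped reads to hg38 with hisat-3n and tallied T positions and T-to-C conversions for each read with bam2bakR. The counts are not normalized. From the 2 h tables, only the signal column was used, the mean normalized count that the authors made with DESeq2 and spike-in factors; the fold changes and p-values there are the authors' own comparisons and were left out.

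Counts of genes with more than 100 reads in total were compared with edgeR 4.0.16 (TMM, quasi-likelihood test) in R 4.3.3. Fraction new was the weight of a mixture of 2 binomial components, fitted in Python 3.11.15 with the background rate of the library without s4U, and its logit, bounded at 0.001 and 0.999, was compared with limma 3.58.1 where a gene had 100 reads or more in all 6 libraries with s4U. bakR was not run. Adjusted p-values are Benjamini-Hochberg values over all genes tested. The smallest p of an exact permutation test at this size, 3 against 3, is 0.1. Half-lives assume a steady state and are given for untreated cells only. Of the 19222 genes, 17148 matched GENCODE 44 by symbol and 1135 by an older symbol, and 939 did not match. Steps were tested on simulated data.

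The 4 genes and the lists were chosen with earlier results of these data known. Besides the 4 genes, the genes named are their relatives, pathway genes past the threshold and the 3 nearest profiles (log2 of CPM + 0.5, and logits), of which 1 is not reported here; others are marked where they appear, and counts, ranges and markers name theirs directly. Alternatives were DESeq2 1.42.0 and its size factors, no count filter, spike-in scaling, a length and GC trend removed with mgcv 1.9.3, other rates, 50 or 500 reads, centring, a replicate block and leaving out each library. No molecular identifiers are described, so intervals cover counting error only.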

Additional observations from a re-analysis of the deposited data

Results flagged for a closer look

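*SESN1* differed with s4U in opposite directions in the 2 treatments. In untreated cells all 3 libraries with s4U (25.2 to 28.2 CPM) lay below the library without it (28.8 CPM). In emetine-treated cells all 3 (31.9 to 33.9 CPM) lay above it (30.7 CPM), with a mean log2 ratio of 0.10. The difference between the treatments was not tested, and each side rests on 1 library without s4U. The share of all genes with this pattern is not given here.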

How the results depend on the processing

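Changes of *DDIT4*, *C10orf10*, *SESN1* and *SESN3* in level became 1.43, 2.29, 0.98 and 0.79 under spike-in scaling (SE 0.47 to 0.51), which shifted all genes. With length and GC content corrected, *SESN1* was 0.096 and *SESN3* -0.18. Without 1 library they ranged from 0.69 to 0.82, 1.596 to 1.76, 0.27 to 0.35 and -0.069 to 0.19. The changes in fraction new of the 4 moved by less than the spread between libraries under every alternative run. Without s4U, spike-in scaling gave ratios of 1.46 for *DDIT4*, 0.953 for *SESN1* and 0.763 for *SESN3*. Pathway genes called higher and lower in level were 3 and 2 with DESeq2, 3 and 4 with length and GC corrected, and 0 to 8 and 0 to 5 without 1 library. Those lower in fraction new were 1 with a pooled background, a common new-read rate or at least 500 reads (which *C10orf10* did not reach), 0 with at least 50 reads, 5 with libraries centred, and 0 to 20 without 1 library.

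The s4U difference of *C10orf10* passed with DESeq2 (-0.72) and without emetine replicate 3, and without 1 library it ranged from -0.82 to -0.66. *SESN1* turned positive with DESeq2's size factors (0.0060), no filter (0.0064), DESeq2 (0.0082), spike-in scaling (0.063), the replicate block (0.0031) and emetine libraries only (0.12), and ranged from -0.11 to 0.10 without 1 library. *SESN3* turned positive with spike-in scaling (0.021) and emetine libraries only (0.15), and ranged from -0.20 to 0.14. The cause of these changes was not tested.

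Same-numbered libraries did not deviate together across genes (correlations of -0.091 to 0.091 for level and 0.0021 to 0.055 for fraction new). A correlation leaves out a shift common to all genes of a library, so whether same-numbered libraries were prepared together was not tested. Reads of genes were most in replicate 2 and fewest in replicate 3 of both treatments with s4U. With the replicate block, *DDIT4* changed by 0.77, *C10orf10* by 1.66, *SESN1* by 0.31 and *SESN3* by 0.086 in level. Over all genes, calls for level (363 higher, 6 lower) became 75 and 3 with the block, 820 and 156 with DESeq2, 60 and 0 with spike-in scaling, 1367 and 525 without emetine replicate 3, and 4 and 0 without untreated replicate 1; calls for fraction new (22 and 518) became 40 and 651 with the block and 41 and 2559 without untreated replicate 1. *C10orf10* had 101 to 207 reads per untreated library, which limits its fraction new there.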
